A study of Saccharomyces cerevisiae with 45 samples.

Results

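Germinating spores of budding yeast kept in rapamycin for 240 min were compared with the same cultures at 120 min, to describe what still changed in the transcriptome of spores whose TORC1 was inhibited. The comparison took 6 of the 45 RNA-Seq libraries of the series, 3 at each time point, chosen by their labels. In all groups purified spores of strain SK1, the product of a diploid and therefore haploid cells of both mating types, had been suspended in YPD, a rich glucose medium, at 30 °C. The groups used were rapamycin 240 min and rapamycin 120 min (2000 nM rapamycin), and DMSO 240 min, DMSO 120 min, DMSO 60 min and DMSO 30 min, in which an equal volume of the solvent replaced the drug. Each had 3 libraries, lettered A, B and C, and values below are given in that order. Poly-A RNA was sequenced, and the 6 rapamycin libraries held 8411310 to 13130722 reads assigned to genes, within the range of the whole series (7736397 to 14522407).

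Rapamycin binds the prolyl isomerase Fpr1, and the complex inhibits TORC1, the protein kinase complex by which yeast couples growth to nutrients. Active TORC1 promotes transcription of ribosomal protein genes and of the ribosome biogenesis factors, and keeps the GATA factors Gln3 and Gat1 from activating genes for the use of poor nitrogen sources, a control known as nitrogen catabolite repression. Germination takes a dormant spore back to growth on glucose: protein synthesis genes are induced early, genes for the use of non-fermentable carbon are repressed, and mating genes follow, since a germinated spore is a haploid cell that can respond to pheromone. In bulk libraries such as these, fewer cells that express a gene and less of its RNA per cell cannot be told apart.

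The promoters of 6 genes described below are shown because they carry the short sequences linked to 3 groups described below: the pheromone response element TGAAACA, bound by Ste12, in mating genes; GATGAG and AAAAATTT, the cores of the PAC and RRPE elements, in a ribosome biogenesis gene; and GATAAG, bound by GATA factors, in nitrogen genes. Each stretch runs 5′ to 3′ on the strand of the gene, from 250 to 51 bases before the annotated start codon in the RefSeq assembly R64 of the laboratory strain S288C, and capitals mark, on either strand, the letters named for the group of that gene. FUS1 (chrIII:71553-71752, forward strand), AGA1 (chrXIV:703449-703648, forward strand) and PRM6 (chrXIII:181126-181325, reverse strand) are mating genes. RLP24 lies at chrXII:166287-166486, forward strand, GAP1 at chrXI:514813-515012, forward strand and DAL5 at chrX:719416-719615, forward strand.
FUS1: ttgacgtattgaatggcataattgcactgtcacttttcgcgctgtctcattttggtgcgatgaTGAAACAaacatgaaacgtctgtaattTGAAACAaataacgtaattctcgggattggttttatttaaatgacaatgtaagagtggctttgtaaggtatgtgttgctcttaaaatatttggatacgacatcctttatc
AGA1: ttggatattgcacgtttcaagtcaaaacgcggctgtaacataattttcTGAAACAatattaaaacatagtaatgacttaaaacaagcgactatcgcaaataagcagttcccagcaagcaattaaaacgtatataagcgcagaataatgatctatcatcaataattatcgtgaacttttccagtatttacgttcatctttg
PRM6: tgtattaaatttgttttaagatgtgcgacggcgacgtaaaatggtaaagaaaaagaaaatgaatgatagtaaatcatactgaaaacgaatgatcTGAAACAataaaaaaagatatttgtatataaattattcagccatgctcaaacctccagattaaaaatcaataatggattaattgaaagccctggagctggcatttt
RLP24: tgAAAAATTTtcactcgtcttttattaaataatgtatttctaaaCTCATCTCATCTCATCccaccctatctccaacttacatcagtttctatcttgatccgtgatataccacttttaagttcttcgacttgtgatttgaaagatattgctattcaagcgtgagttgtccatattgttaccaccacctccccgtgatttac
GAP1: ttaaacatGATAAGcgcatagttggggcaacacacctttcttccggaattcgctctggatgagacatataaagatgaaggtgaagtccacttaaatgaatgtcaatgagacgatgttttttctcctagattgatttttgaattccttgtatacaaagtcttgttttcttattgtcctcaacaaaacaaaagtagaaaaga
DAL5: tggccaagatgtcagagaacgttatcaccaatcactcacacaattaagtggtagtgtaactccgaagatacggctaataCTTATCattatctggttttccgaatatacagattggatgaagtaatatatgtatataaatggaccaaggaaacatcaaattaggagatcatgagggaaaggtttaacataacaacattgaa
FUS1 held TGAAACA at 187 and 160 bases before the start codon, AGA1 at 202 and PRM6 at 156. In RLP24 AAAAATTT began 248 bases before the start codon and the reverse complement of GATGAG followed at 206, 201 and 196, whereas GAP1 and DAL5 held 1 match to GATAAG each, at 242 and 171. Over windows from 250 bases before to 50 after the start, searched on both strands, TGAAACA was present in 58.1% of 31 haploid mating genes, in 15.7% of 312 genes that rose and in 4.22% of 237 that fell, against 7.48% of all 6020 promoters. GATGAG was found in 95.6% and AAAAATTT in 81.4% of 113 ribosome biogenesis genes, against 20.3% and 14.1% of all promoters. GATGAG was about as frequent in genes that rose (20.2%) as in those that fell (19.8%), whereas AAAAATTT was in 21.8% and 5.49% of them. GATAAG was in 48.4% of 31 genes under nitrogen catabolite repression and in 26.6% of the genes that fell, against 9.62% of those that rose and 14.6% of all. None of these motifs contains another, and a match says only that the letters are present.

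Between 120 and 240 min 326 genes rose and 248 fell in rapamycin, of 5679 genes tested, at an adjusted p under 0.05 and a change of at least 2-fold (edgeR quasi-likelihood test, Benjamini-Hochberg). These are 5.74% and 4.37% of the genes tested, and 10.1% were called in either direction. The 3 libraries of one time did not overlap with those of the other for 572 of the 574 called genes, against 72.2% of all genes tested. Changes were mostly moderate: 55 genes rose and 37 fell at least 4-fold, and 21 rose and 4 fell at least 8-fold. The median log2 fold change over all genes was -0.03. Without scaling beyond library size the median was -0.23 and the split was 223 higher and 422 lower, so that directions below are relative to the bulk of genes. Of the 10 largest rises among genes with a name 9 were mating genes, and the largest falls were mostly in transporters and enzymes for nitrogen, sulfate, fatty acids and other poor nutrients.

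**Figure D1:**
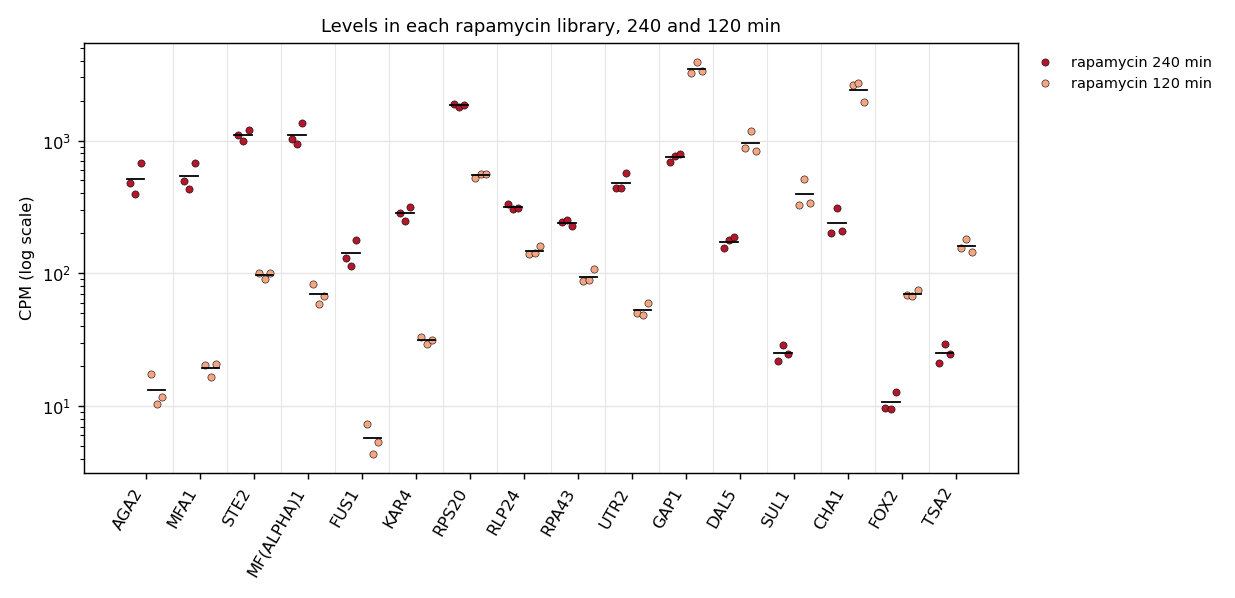
CPM (log axis) of 16 genes in each rapamycin library, with 240 min to the left of 120 min for every gene; points are libraries A, B and C and bars their means. Mating, ribosome and cell wall genes are higher at 240 min and GAP1, DAL5, SUL1, CHA1, FOX2 and TSA2 lower. The libraries of the 2 times are separated for every gene shown, as for 72.2% of all genes tested. Separation was a condition for naming the largest changes.

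Haploid mating genes rose most. Of 31 haploid mating genes 27 rose and 0 fell, with a median log2 fold change of 3.0 against -0.03 for all genes. In CPM, counts scaled to the library total and by TMM, their summed level was 12702, 11353 and 16316 CPM at 240 min, against 2264, 2127 and 2132 CPM at 120 min, which was 1.27% ± 0.27 and 0.228% ± 0.010 of the reads (SD, n = 3). Library C was the highest at 240 min, and without it the median of the list was 2.54. The study's own mating class is larger and rose in part. Of its 71 genes tested 28 rose (39.4%, beside 5.74% of all genes tested) and 0 fell. The median log2 fold change of that class was 0.66.

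The pheromone genes of both mating types were among them. MFA1, which encodes a-factor, had 499, 433 and 678 CPM at 240 min, against 20.4, 16.4 and 20.7 CPM at 120 min (log2 fold change 4.87 ± 0.18, SE, n = 3 against 3, adjusted p = 2.2e-08, edgeR). MF(ALPHA)1, which encodes α-factor, had 1022, 941 and 1351 CPM at 240 min, against 82.3, 58.4 and 67.2 CPM at 120 min (log2 fold change 4.05 ± 0.16). Neither gene had overlapping libraries, which was a condition for naming the largest rises. The second copies of both genes, MFA2 and MF(ALPHA)2, are members of the same list and had log2 fold changes of 3.56 and 3.30, the last at the low levels of 12, 9.03 and 25.2 CPM at 240 min, against 2.99, 0.981 and 0.797 CPM at 120 min.

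Receptors and the pheromone export and degradation machinery followed. STE2, the α-factor receptor of MATa cells, had 1093, 995 and 1198 CPM at 240 min, against 100.8, 90.4 and 100.1 CPM at 120 min (log2 fold change 3.55 ± 0.09). STE3, the a-factor receptor of MATα cells, had 127, 116 and 153 CPM at 240 min, against 52.9, 47.5 and 47 CPM at 120 min (log2 fold change 1.48 ± 0.10), a smaller rise of 2.79-fold. STE6, the exporter of a-factor, rose by 2.63 on the log2 scale. BAR1, the secreted protease that cleaves α-factor, had 407, 323 and 458 CPM at 240 min, against 19.7, 14 and 17.2 CPM at 120 min (log2 fold change 4.6 ± 0.15).

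Genes for adhesion and cell fusion, which pheromone signalling induces, included the largest changes of the whole comparison. AGA2, the adhesion subunit of a-agglutinin, had 479, 393 and 676 CPM at 240 min, against 17.3, 10.3 and 11.7 CPM at 120 min (log2 fold change 5.35 ± 0.23, adjusted p = 3.4e-08, edgeR). Its anchor subunit AGA1 had 2874, 2585 and 4302 CPM at 240 min, against 129, 101.04 and 103 CPM at 120 min (log2 fold change 4.93 ± 0.20). These are rises of 40.9-fold and 30.5-fold with no overlap between times. The partner on MATα cells, SAG1, had 427, 403 and 834 CPM at 240 min, against 111, 86.8 and 88.8 CPM at 120 min (log2 fold change 2.59 ± 0.25), with library C the highest at 240 min.

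FUS1, which acts in fusion of the mating pair, had 131, 114 and 178 CPM at 240 min, against 7.34, 4.37 and 5.35 CPM at 120 min (log2 fold change 4.69 ± 0.21). PRM6, a pheromone-regulated membrane protein, had 283, 140 and 349 reads at 240 min, against 5, 0 and 6 reads at 120 min. FIG1, needed for calcium influx during mating, had 128, 74 and 227 reads at 240 min, against 5, 0 and 6 reads at 120 min. With so few reads at 120 min the fitted log2 fold changes of 6.03 ± 0.53 and 5.20 ± 0.64 depend on how zeros are handled. The libraries of both times are well apart, which was a condition for naming the largest rises. ASG7, an a-specific gene, was also low, with 16.5, 13.5 and 26.1 CPM at 240 min, against 1.25, 0.624 and 1.82 CPM at 120 min (log2 fold change 4.01 ± 0.35).

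The signalling core had mostly smaller changes. KAR4, a transcription factor of the pheromone response, had 284, 248 and 318 CPM at 240 min, against 33.2, 29.5 and 31.5 CPM at 120 min (log2 fold change 3.23 ± 0.10), and SST2, which shuts off the G protein, rose by 2.57. The Gα subunit GPA1 rose by 1.66, the MAP kinase FUS3 by 1.43 and FAR1, the cyclin-dependent kinase inhibitor that arrests the cell cycle in G1, by 1.59. STE12, the factor that binds the pheromone response element, had 462, 431 and 469 CPM at 240 min, against 219, 227 and 227 CPM at 120 min (log2 fold change 1.07 ± 0.06). The members that did not pass were the scaffold STE5 (log2 fold change 0.03), the Gβ subunit STE4 (0.58), the Gγ subunit STE18 (0.70) and PRM4 (0.68). STE12 and the other members given here outside the largest changes were named for their roles after values had been seen.

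Protein synthesis genes rose as a block. Of 90 genes of this class, mostly ribosomal proteins, 79 rose and 0 fell, with a median log2 fold change of 1.35. The libraries of the 2 times did not overlap, in either direction, for any of the 90, and for 72.2% of all genes tested. Together they took 9.30% ± 0.31 of the reads at 240 min and 4.46% ± 0.12 at 120 min (SD, n = 3). RPS20, a protein of the small subunit, had 1872, 1803 and 1841 CPM at 240 min, against 525, 559 and 562 CPM at 120 min (log2 fold change 1.8 ± 0.07, adjusted p = 2.6e-08, edgeR). RPS29A, also of the small subunit, had 359.6, 361 and 328 CPM at 240 min, against 91.8, 108 and 103 CPM at 120 min (log2 fold change 1.84 ± 0.08).

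Members of this class encoded by gene pairs did not always move alike. RPL9A had 623, 732 and 642 CPM at 240 min, against 108, 131 and 151 CPM at 120 min (log2 fold change 2.41 ± 0.12, the largest of the class), whereas its copy RPL9B had 521, 602 and 559.8 CPM at 240 min, against 387, 400.3 and 418 CPM at 120 min (log2 fold change 0.53 ± 0.07), which missed the 2-fold minimum. RPL15B was the one member that was lower at 240 min, with 55.3, 56 and 51.3 CPM at 240 min, against 84.5, 88.3 and 79.7 CPM at 120 min (log2 fold change -0.58 ± 0.07, not called). Stretches of read length that also occur elsewhere in the genome made up 2.10% of RPL9A and of RPL9B and 3.11% of RPL15B. RPL9B and RPL15B were singled out after values had been seen.

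The machinery that builds ribosomes rose by less. All 113 ribosome biogenesis factors were higher at 240 min with an adjusted p under 0.05, against 1850 of all 5679 genes tested. Their median log2 fold change was 0.79, and 13 of them reached 2-fold. This count rests on values near the fold minimum: it was 27 without rapamycin 120 min library C, 22 without rapamycin 240 min library C, 7 without rapamycin 120 min library A, and 0 with library sizes alone. RLP24, a factor of the large subunit whose promoter is shown above, had 333, 306 and 312 CPM at 240 min, against 139, 143 and 159.8 CPM at 120 min (log2 fold change 1.16 ± 0.07). UTP21 and DIP2, both of the small subunit processome, had log2 fold changes of 1.15 ± 0.08 and 1.15 ± 0.08. Of 15 genes of RNA polymerase I and its factors, which transcribe the ribosomal RNA, 4 rose and 0 fell (median 0.78), and 2 rose with library sizes alone. The polymerase subunit RPA43 had 244, 253 and 227 CPM at 240 min, against 87, 89.1 and 107 CPM at 120 min (log2 fold change 1.41 ± 0.08), while RRN11, of the core factor, and RPA49, another subunit, had log2 fold changes of 1.21 ± 0.12 and 1.08 ± 0.08.

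Genes of the growing cell surface rose in part. Of 31 vegetative cell wall genes tested 11 rose and 0 fell, with a median log2 fold change of 0.74. UTR2, a cell wall transglycosylase, had 439.8, 438 and 568 CPM at 240 min, against 49.9, 48.7 and 60.0 CPM at 120 min (log2 fold change 3.24 ± 0.12). TIR1, a mannoprotein known from cells grown without oxygen, had 36, 37.5 and 31.2 CPM at 240 min, against 4.83, 3.3 and 2.85 CPM at 120 min (log2 fold change 3.29 ± 0.17). CWP1, another mannoprotein, had 152, 154 and 144 CPM at 240 min, against 29.7, 18.2 and 30.3 CPM at 120 min (log2 fold change 2.59 ± 0.14). All 3 rose without overlap between times, and 72.2% of all genes tested had no overlap.

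Of 27 genes of ergosterol synthesis and its oxygen- and heme-dependent steps 8 rose and 0 fell, with a median of 0.72. At an adjusted p under 0.05 26 were higher, against 1850 of all 5679 genes tested. ERG2, the sterol isomerase, rose by 1.49 on the log2 scale, HEM13, of heme synthesis, by 1.41 and HMG1, the reductase that makes mevalonate, by 1.38. ANB1, an isoform of translation factor eIF5A that is induced by low oxygen, was among the 10 largest rises of all genes, with 33.6, 35.7 and 20.7 CPM at 240 min, against 2.32, 1.34 and 0.569 CPM at 120 min (log2 fold change 4.42 ± 0.32). Its levels were low, with 24, 15 and 5 reads at 120 min.

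Nitrogen genes fell. Of 30 genes under nitrogen catabolite repression tested, 21 fell and 1 rose, with a median log2 fold change of -1.39, and they took 0.990% ± 0.025 of the reads at 240 min and 2.46% ± 0.21 at 120 min (SD, n = 3). GAP1, the general amino acid permease, had 685, 770.2 and 788 CPM at 240 min, against 3205, 3889 and 3367 CPM at 120 min (log2 fold change -2.17 ± 0.10, adjusted p = 3.7e-08, edgeR). DIP5, the permease for glutamate and aspartate, had 1455, 1571 and 1393 CPM at 240 min, against 3377, 3145 and 2727 CPM at 120 min (log2 fold change -1.01 ± 0.09), a change at the fold minimum: the log2 fold change of DIP5 was -0.99 with DESeq2 size factors and -0.95 without rapamycin 120 min library A. Both permeases stayed above the DMSO cultures. In DMSO GAP1 had 30.7, 21.3 and 27.1 CPM at 240 min, against 65.6, 77.5 and 64.5 CPM at 120 min, and DIP5 had 125, 177 and 227 CPM at 240 min, against 67.1, 69.9 and 60.1 CPM at 120 min. The one riser of the 30 genes was OPT2, an oligopeptide transporter, with 384, 350.0 and 318 CPM at 240 min, against 134, 118 and 127 CPM at 120 min (log2 fold change 1.53 ± 0.08). OPT2 was named after its value had been seen.

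Genes for the use of allantoin and urea, nitrogen sources of last resort, were part of this fall. Of 11 such genes 8 fell and 0 rose (median -1.90), and all 8 are already counted in the nitrogen list above. DUR3, a transporter of urea and polyamines, had 15.5, 15.7 and 14.4 CPM at 240 min, against 119, 166 and 104 CPM at 120 min (log2 fold change -3.04 ± 0.17). DAL5, the allantoate permease, had 155, 177 and 188 CPM at 240 min, against 878, 1180.2 and 840.2 CPM at 120 min (log2 fold change -2.43 ± 0.13), and DAL4, the allantoin permease, had 21.1, 24.5 and 19.8 CPM at 240 min, against 123, 194 and 107 CPM at 120 min (log2 fold change -2.65 ± 0.21). Library B at 120 min was the highest for all 3, and no library at 240 min came near those at 120 min.

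Among 40 genes of TORC1 itself, its regulators and effectors, GAT1 fell and 0 rose (2.5% lower, beside 4.37% of all genes tested, median -0.13). GAT1, a GATA factor and itself a target of nitrogen catabolite repression, had 125, 150.4 and 158 CPM at 240 min, against 296, 395 and 329 CPM at 120 min (log2 fold change -1.18 ± 0.11). The other activator of these genes, GLN3, had a log2 fold change of -0.72 ± 0.06 and did not reach 2-fold. CHA1, the serine and threonine deaminase, had 199, 308 and 209.7 CPM at 240 min, against 2603, 2707 and 1951 CPM at 120 min (log2 fold change -3.29 ± 0.18), the second largest fall of all genes. ATO2, a membrane protein with a role in ammonium export, had 110.1, 150.3 and 115 CPM at 240 min, against 1013, 1231 and 886 CPM at 120 min (log2 fold change -3.01 ± 0.14).

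Sulfate, methionine and amino acid genes fell more selectively. Of 30 genes for sulfate and methionine 6 fell and 0 rose (median -0.61). SUL1, a sulfate permease, had 21.7, 28.7 and 24.5 CPM at 240 min, against 328, 513 and 339.6 CPM at 120 min (log2 fold change -3.93 ± 0.18, adjusted p = 4.5e-08, edgeR), the largest fall of the comparison. MET3, the ATP sulfurylase, had 52.1, 64.9 and 69.4 CPM at 240 min, against 222, 329.8 and 255 CPM at 120 min (log2 fold change -2.07 ± 0.15), and MET5, of sulfite reductase, fell by 1.49 on the log2 scale. Of 60 genes of amino acid synthesis 9 fell and 2 rose (15% and 3.33%, beside 4.37% and 5.74% of all genes tested, median -0.30). LEU1 and ARG1, of leucine and arginine synthesis, had log2 fold changes of -1.47 ± 0.10 and -1.35 ± 0.09. SER3, of serine synthesis, rose against them with 424, 362 and 458 CPM at 240 min, against 78.2, 74.7 and 82.5 CPM at 120 min (log2 fold change 2.46 ± 0.09). The non-coding gene SRG1, whose annotated end overlaps the start of SER3 on the same strand, was counted as a gene of its own. SRG1 had 318, 277 and 201 reads at 240 min, against 722, 665 and 432 reads at 120 min, and fell (log2 fold change -1.23 ± 0.14) where SER3 rose. It was named after its value had been seen.

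Genes for the use of fatty acids and for gluconeogenesis fell. Of 23 genes of fatty acid oxidation and the carnitine shuttle 13 fell and 0 rose (median -1.06). With an adjusted p under 0.05 22 were lower, against 1909 of all 5679 genes tested. FOX2, an enzyme of peroxisomal β-oxidation, had 9.7, 9.43 and 12.8 CPM at 240 min, against 69, 66.9 and 74.3 CPM at 120 min (log2 fold change -2.67 ± 0.11). POX1, which opens that pathway, had 15.7, 16.5 and 16.8 CPM at 240 min, against 85, 86.1 and 76.4 CPM at 120 min (log2 fold change -2.29 ± 0.08). SPS19, which acts on unsaturated fatty acids, had 1.83, 2.33 and 2.26 CPM at 240 min, against 9.36, 7.31 and 8.99 CPM at 120 min. Of 22 genes of the gluconeogenesis class 11 fell and 0 rose (median -1.0). The lactate permease JEN1 fell by 1.92, and the glyoxylate enzymes ICL1 and MLS1, named for their roles, by 1.17 and 1.15, all on the log2 scale. CIT3, a mitochondrial citrate and methylcitrate synthase, and PDH1, the methylcitrate dehydratase, had log2 fold changes of -2.55 ± 0.18 and -2.38 ± 0.10. Of 51 genes of the oxidative phosphorylation class 0 were called, beside 10.1% of all genes tested (median -0.03). Without a fold minimum 18 of them were higher and 14 lower. Of 9 genes of the study's TCA class tested 1 fell, PDH1 (11.1%, beside 4.37% of all genes tested, median -0.61).

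Of 27 antioxidant genes 10 fell and 0 rose (median -0.76). TSA2, a stress-induced peroxiredoxin, had 21.2, 29.2 and 24.7 CPM at 240 min, against 156, 181 and 145 CPM at 120 min (log2 fold change -2.64 ± 0.12). CTA1, the peroxisomal catalase, had 16.5, 16.1 and 20.6 CPM at 240 min, against 88.2, 86.4 and 95.6 CPM at 120 min (log2 fold change -2.29 ± 0.10), and OYE3, an NADPH oxidoreductase, had 1.67, 2.43 and 2.56 CPM at 240 min, against 13, 9.1 and 16.6 CPM at 120 min (log2 fold change -2.49 ± 0.26). CIN5, a bZIP transcription factor of stress responses, fell by 2.62 on the log2 scale and DAK2, a dihydroxyacetone kinase, by 2.50, the last at low levels of 2.31, 4.67 and 2.95 CPM at 240 min, against 17.3, 23 and 16.6 CPM at 120 min. Of 34 genes of autophagy and vacuolar proteolysis 31 were lower at an adjusted p under 0.05, against 1909 of all 5679 genes tested. Their median was -0.68, but 3 reached 2-fold (8.82%, beside 4.37% of all genes tested). These were the kinase ATG1 (log2 fold change -1.33 ± 0.08), the carboxypeptidase CPS1 (-1.18 ± 0.08) and the protease PRB1 (-1.09 ± 0.08).

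**Figure D2:**
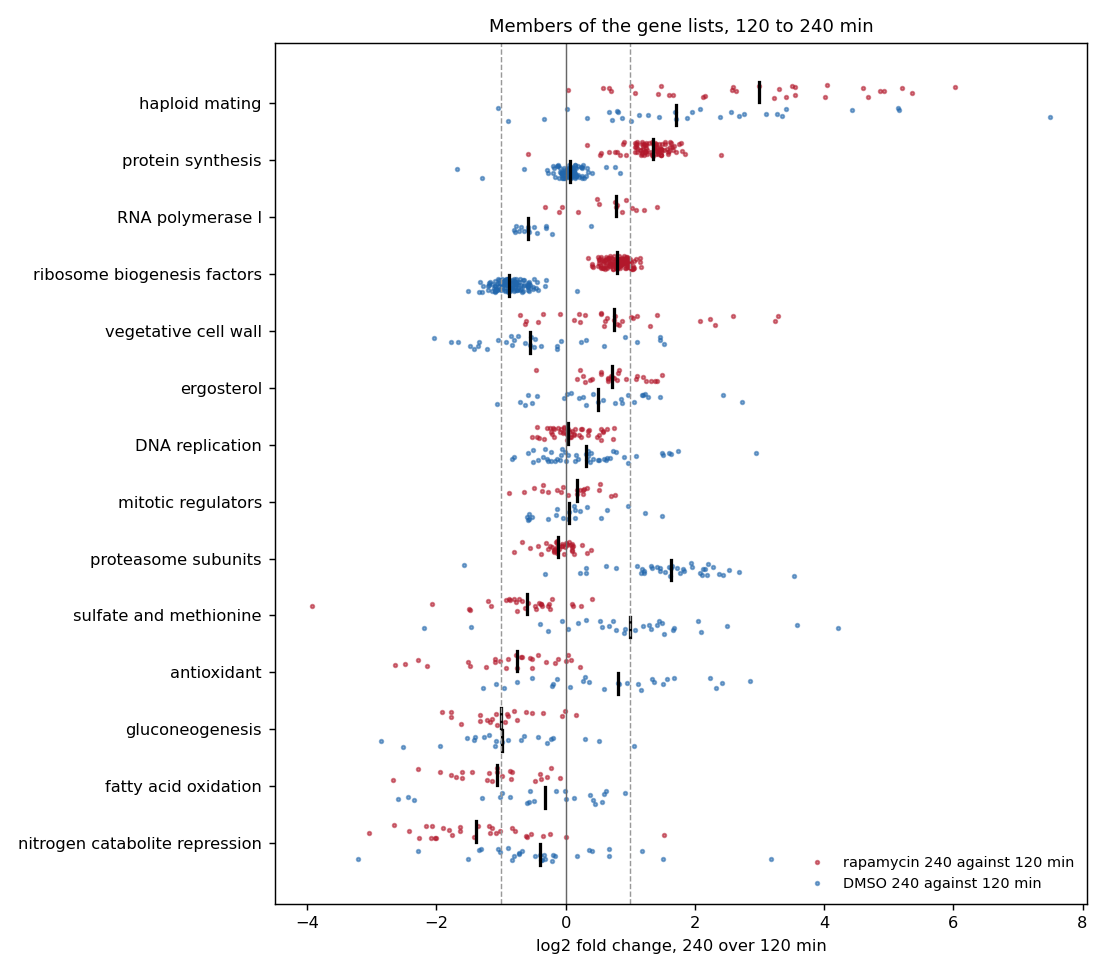
Log2 fold change of 240 over 120 min for every tested member of 14 gene lists, in rapamycin (upper row of each pair) and in DMSO (lower row); black bars are medians and dashed lines mark 2-fold. Ribosome biogenesis factors lie right of 0 in rapamycin (median 0.79) and mostly left of it in DMSO (median -0.88), and proteasome subunits stay near 0 in rapamycin (median -0.11) but not in DMSO (median 1.62).

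Genes of cell division showed few calls in most lists, beside 10.1% of all genes tested (5.74% higher and 4.37% lower). None of 47 DNA replication genes (median 0.04), 10 histone genes (median -0.49) or 21 mitotic regulators (median 0.17) was called, by edgeR or by DESeq2 at 2-fold. Without a fold minimum 26, 9 and 16 of them passed, and as many had an unadjusted p under 0.05. Over all 5679 genes tested 3759 passed without a fold minimum, and 3925 had an unadjusted p under 0.05. Of 103 genes of the G1 class tested 1 rose, SVS1 (log2 fold change 1.21 ± 0.14), and the class had a median of -0.14. Of 39 genes of the G2/M class 2 rose and 0 fell (5.13% higher, median -0.11). Of 16 genes of G1 cyclins and Start 2 rose and 1 fell (12.5% and 6.25%, beside 5.74% and 4.37% of all genes tested, median 0.02). PCL2, a cyclin of the kinase Pho85, had 74, 69 and 89.3 CPM at 240 min, against 17.7, 17.8 and 15 CPM at 120 min (log2 fold change 2.25 ± 0.11) and the second riser was FAR1, given above with the mating genes. Both risers also belong to the study's mating class. The faller was PCL1, given below, whose call was lost when some single libraries were left out. Of 11 genes of daughter-cell separation PRY3 fell (log2 fold change -1.24 ± 0.13), which is 9.09% of the list.

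Of the genes that the study followed by quantitative PCR as cell-cycle markers, 5 of 8 were high enough to test. CLN1, a G1 cyclin, had 5.01, 3.55 and 3.64 CPM at 240 min, against 3.67, 4.46 and 4.33 CPM at 120 min, and its libraries overlapped. The G1 cyclin PCL1 had 11, 6 and 20 reads at 240 min, against 37, 26 and 22 reads at 120 min (log2 fold change -1.24 ± 0.37, adjusted p = 0.013, edgeR), and this call was lost without library A of either time or library B at 240 min. EGT2 (-0.28), CHS2 (-0.11) and CTS1 (-0.73), which act in daughter-cell separation and septum formation, were not called. ACT1, the actin gene and reference of those assays, had 1437, 1570.0 and 1632 CPM at 240 min, against 1235, 1159 and 1257 CPM at 120 min (log2 fold change 0.40 ± 0.07). This difference was below 2-fold and without overlap between times, as for 72.2% of all genes tested.

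The study singled out 7 genes to stand for those under joint control of TORC1 and glucose. That choice was made partly on these libraries, so their directions are no independent evidence, and 1 rose and 3 fell. GFD2 had 23.1, 27.1 and 21 CPM at 240 min, against 3.09, 2.32 and 6.38 CPM at 120 min (log2 fold change 2.69 ± 0.26) and rose, and DHR2, a helicase of ribosome biogenesis, had 79.9, 93.4 and 78.1 CPM at 240 min, against 39.5, 47.4 and 48.7 CPM at 120 min (log2 fold change 0.94 ± 0.10) and was not called. CRC1, the mitochondrial carnitine carrier, fell by 1.60 on the log2 scale, RME1, a repressor of meiosis, by 1.45 and UGA1, the GABA transaminase, by 1.14. CIT1, the citrate synthase, had a log2 fold change of -0.86 ± 0.08 and GPG1 one of -0.12 ± 0.07, neither called. The list's median was -0.86.

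Markers of the spore state were low at both times. The summed level of 31 spore wall and late sporulation genes was 508 ± 48 CPM at 240 min and 866 ± 253 CPM at 120 min in rapamycin, against 12258 ± 1843 CPM in purified spores (SD, n = 3). Of 28 tested 3 fell (10.7%, beside 4.37% of all genes tested) and 0 rose (median -0.20). They were MPC54, of the meiotic spindle pole body (log2 fold change -1.70 ± 0.12), SPO20, of prospore membrane fusion (-1.40 ± 0.16), and SPS100, a spore wall protein, with 121, 149 and 223 CPM at 240 min, against 330.2, 325 and 747 CPM at 120 min. SPS100 alone carried much of the summed level at 120 min, of its spread and of its difference between the 2 times. It was high in library C at 120 min, and its log2 fold change was -0.95 without that library, below the 2-fold minimum. Of 19 meiosis genes 4 fell and 0 rose (median -0.66), among them REC8, REC102 and SPO13 with log2 fold changes of -1.18, -1.43 and -1.95. Without rapamycin 120 min library C 2 of them were called. SPO13 rested on 4, 3 and 4 reads at 240 min, against 15, 13 and 14 reads at 120 min. The part of remaining spores in the other results was not tested.

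**Figure D3:**
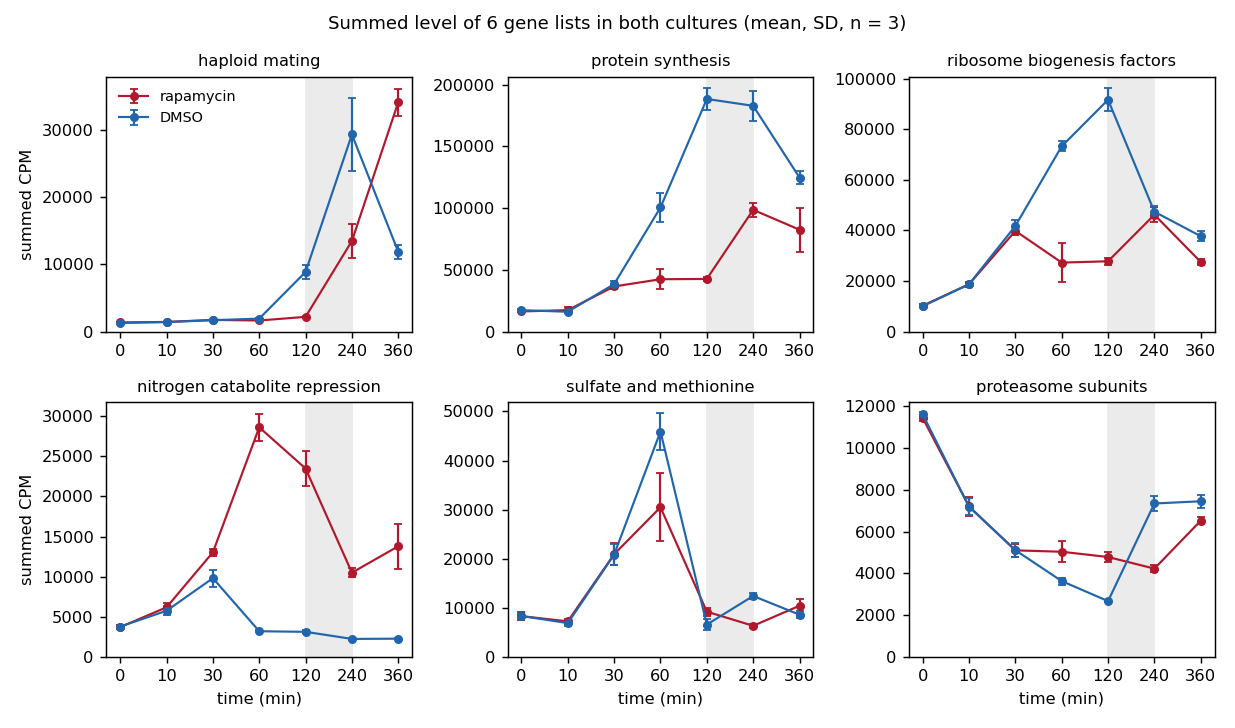
Summed CPM of 6 gene lists at each time (0 to 360 min) in rapamycin and in DMSO, as mean and SD of 3 libraries; the grey band is the interval from 120 to 240 min and times are evenly spaced, not to scale. At 240 min protein synthesis genes sum to 98597 CPM in rapamycin, against 182864 CPM in DMSO, and nitrogen genes to 10492 CPM, against 2230.1 CPM.

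The same interval in the DMSO cultures was used to ask which of these changes differed between cultures. From 120 to 240 min in DMSO 803 genes rose and 491 fell of 5616 tested (14.3% and 8.74%; 23% in either direction). A test of the difference itself, the interaction of culture and time over 12 libraries, called 1876 of 5727 genes (32.8%), 930 with a higher change in rapamycin (16.2%) and 946 with a lower one (16.5%). With library sizes alone the split was 671 and 1268. In the values below the interaction is the log2 fold change in rapamycin minus that in DMSO.

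Ribosome genes differed between the cultures. Among 113 ribosome biogenesis factors 111 had a higher change in rapamycin and 0 a lower one. In DMSO 30 of them fell and 0 rose (median -0.88), where rapamycin cultures had a median of 0.79. RLP24 had 302, 346 and 303 CPM at 240 min, against 583, 641 and 619.8 CPM at 120 min in DMSO, the reverse order of its levels in rapamycin (interaction 2.07 ± 0.11, SE, adjusted p = 5.1e-10, edgeR). For RPA43 the interaction was 2.24 ± 0.13. Of 90 protein synthesis genes 74 had a higher change in rapamycin and 0 a lower one. In DMSO their median log2 fold change was 0.07. RPS20 had 3350.1, 3611 and 3363 CPM at 240 min, against 3371, 3250.3 and 3318 CPM at 120 min in DMSO (interaction 1.70 ± 0.11), and at 240 min its level in rapamycin was still below both DMSO groups.

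Mating genes rose in both cultures. In DMSO 21 of 31 rose and 1 fell (median 1.71), and in the interaction 15 had a higher change in rapamycin and 4 a lower one. For the study's larger mating class 30 of 69 rose and 2 fell in DMSO (median 0.71). In the interaction 23 of its 71 genes had a higher change in rapamycin and 15 a lower one. STE2 had 1193, 1425 and 1426 CPM at 240 min, against 845, 734 and 863 CPM at 120 min in DMSO (interaction 2.78 ± 0.14). The interaction was 3.71 ± 0.32 for AGA2 and 2.94 ± 0.30 for BAR1. Genes expressed in MATα cells differed among themselves, with 2.82 ± 0.20 for MF(ALPHA)1 and negative interactions for SAG1 and MF(ALPHA)2. SAG1 had 4248, 5108 and 5891 CPM at 240 min, against 209.8, 235 and 303 CPM at 120 min in DMSO (interaction -1.8 ± 0.32), and MF(ALPHA)2 had 507, 519.9 and 814 CPM at 240 min, against 2.09, 1.85 and 6.47 CPM at 120 min (interaction -4.16 ± 0.96); all 3 were named here after their values had been seen.

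Nitrogen, sulfate and antioxidant genes had more lower than higher changes in rapamycin relative to DMSO. Of 30 nitrogen genes 15 had a lower change in rapamycin and 2 a higher one. DAL5 had 16.7, 15.8 and 16.4 CPM at 240 min, against 23.2, 20.8 and 23.5 CPM at 120 min in DMSO (interaction -2.0 ± 0.19), and the interaction was -2.26 ± 0.31 for DUR3 and -2.48 ± 0.22 for DIP5, while GAP1, which fell in both cultures, had -0.82 ± 0.18 and was not called. Of 30 sulfate and methionine genes 20 had a lower change in rapamycin and 0 a higher one, and in DMSO 15 rose and 2 fell. MET3 had 209, 233 and 236 CPM at 240 min, against 36.7, 64.6 and 68 CPM at 120 min in DMSO (interaction -4.12 ± 0.26). For antioxidant genes these counts were 19 lower and 0 higher of 27, with 11 rising and 2 falling in DMSO.

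Of 40 genes of the proteasome class 0 were called in rapamycin by edgeR and 0 by DESeq2 (median -0.11). When no fold minimum was set 14 passed, and 15 had an unadjusted p under 0.05, against 3759 and 3925 of all 5679 genes tested. In DMSO 33 rose and 1 fell (median 1.62), and in the interaction 31 had a lower change in rapamycin and 1 a higher one. RPN4, the factor that activates proteasome genes, had a log2 fold change of -0.79 ± 0.07 in rapamycin and -0.32 in DMSO, neither called. The sequence GGTGGCAAA, which Rpn4 binds, was present in the promoters of 60.0% of these 40 genes, against 1.2% of all promoters.

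Cell wall genes also differed between the cultures: 20 of 31 had a higher change in rapamycin and 1 a lower one, and in DMSO 4 rose and 9 fell. TIR1 had 1.05, 1.79 and 1.7 CPM at 240 min, against 7.28, 4.28 and 5.05 CPM at 120 min in DMSO (interaction 5.12 ± 0.34). Among cell-cycle genes CLN1 had 21.1, 10.6 and 13.9 CPM at 240 min, against 3.97, 3.99 and 3.73 CPM at 120 min in DMSO (interaction -1.96 ± 0.37) and PCL1 had 21.4, 8.33 and 13.7 CPM at 240 min, against 1.87, 1.71 and 2.52 CPM at 120 min (interaction -4.07 ± 0.61). ACT1 had 3099.7, 3088 and 3294 CPM at 240 min, against 1479, 1629.7 and 1622 CPM at 120 min in DMSO (interaction -0.65 ± 0.11, not called at 2-fold), and CIT1 had 35.3, 32.2 and 49.1 CPM at 240 min, against 18.7, 11.3 and 12.7 CPM at 120 min (interaction -2.32 ± 0.22).

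Interactions were ranked among named genes with a mean of at least 10 CPM in any of the 4 groups. The 5 largest with a higher change in rapamycin were those of PHO84, SER3, ANS1, PHO89 and SPL2. The 5 largest with a lower one were those of MET6, CHA1, MHT1, CPS1 and SSA2. PHO84, the high-affinity phosphate transporter, had 449, 454 and 486 CPM at 240 min, against 61.4, 43.3 and 128 CPM at 120 min in rapamycin and 51.6, 71.1 and 134 CPM at 240 min, against 2826, 3584 and 3321 CPM at 120 min in DMSO (interaction 7.85 ± 0.50). PHO89, the second such transporter, had 144, 141 and 152 CPM at 240 min, against 57.1, 42.2 and 74.1 CPM at 120 min in rapamycin and 23.9, 22.5 and 27.1 CPM at 240 min, against 628, 627 and 800.4 CPM at 120 min in DMSO (interaction 6.16 ± 0.23). SPL2, a regulator of phosphate uptake, had 4.3, 4.06 and 4.82 CPM at 240 min, against 2.61, 2.5 and 3.3 CPM at 120 min in rapamycin and 0.467, 0.358 and 0.916 CPM at 240 min, against 24.7, 27.8 and 19.4 CPM at 120 min in DMSO (interaction 6.08 ± 0.36). All 3 were higher at 240 min in rapamycin and lower at 240 min in DMSO, although SPL2 was not called in rapamycin. Of 21 phosphate genes 2 rose and 1 fell in rapamycin (9.52% and 4.76%, beside 5.74% and 4.37% of all genes tested, median 0.12). Without rapamycin 120 min library C 5 were called. In DMSO 1 rose and 11 fell (median -1.13).

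SER3 had 33.2, 25.3 and 29.3 CPM at 240 min, against 407, 386 and 603 CPM at 120 min in DMSO (interaction 6.41 ± 0.23). ANS1 had 4518, 5287 and 3984 CPM at 240 min, against 5512, 5706 and 5105 CPM at 120 min in rapamycin, where the libraries overlapped, and 69.7, 50.9 and 66.1 CPM at 240 min, against 4782, 6439 and 5507 CPM at 120 min in DMSO (interaction 6.25 ± 0.21). In the other direction MET6, the methionine synthase, had 271, 271 and 341 CPM at 240 min, against 554, 617 and 559.6 CPM at 120 min in rapamycin and 1651, 1542 and 1570.4 CPM at 240 min, against 76.1, 76.7 and 120.2 CPM at 120 min in DMSO (interaction -5.08 ± 0.21). CHA1 had 152, 186 and 178 CPM at 240 min, against 54, 58.6 and 46.4 CPM at 120 min in DMSO (interaction -5.03 ± 0.23), and CPS1 had 103, 90.8 and 119 CPM at 240 min, against 14.7, 7.27 and 13.9 CPM at 120 min (interaction -4.31 ± 0.22). MHT1, which makes methionine from homocysteine, had 7.95, 6.39 and 9.94 CPM at 240 min, against 7.82, 9.45 and 8.08 CPM at 120 min in rapamycin and 69.1, 82.1 and 71.3 CPM at 240 min, against 2.98, 3.71 and 4.83 CPM at 120 min in DMSO (interaction -4.32 ± 0.24). SSA2, a cytosolic Hsp70, had 348, 411 and 454 CPM at 240 min, against 484, 552 and 479 CPM at 120 min in rapamycin and 3370.2, 4140.1 and 4457 CPM at 240 min, against 207, 257 and 287 CPM at 120 min in DMSO (interaction -4.31 ± 0.19). Since 45.8% of the read-length stretches of SSA2 occur elsewhere in the genome, its count is uncertain.

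**Figure D4:**
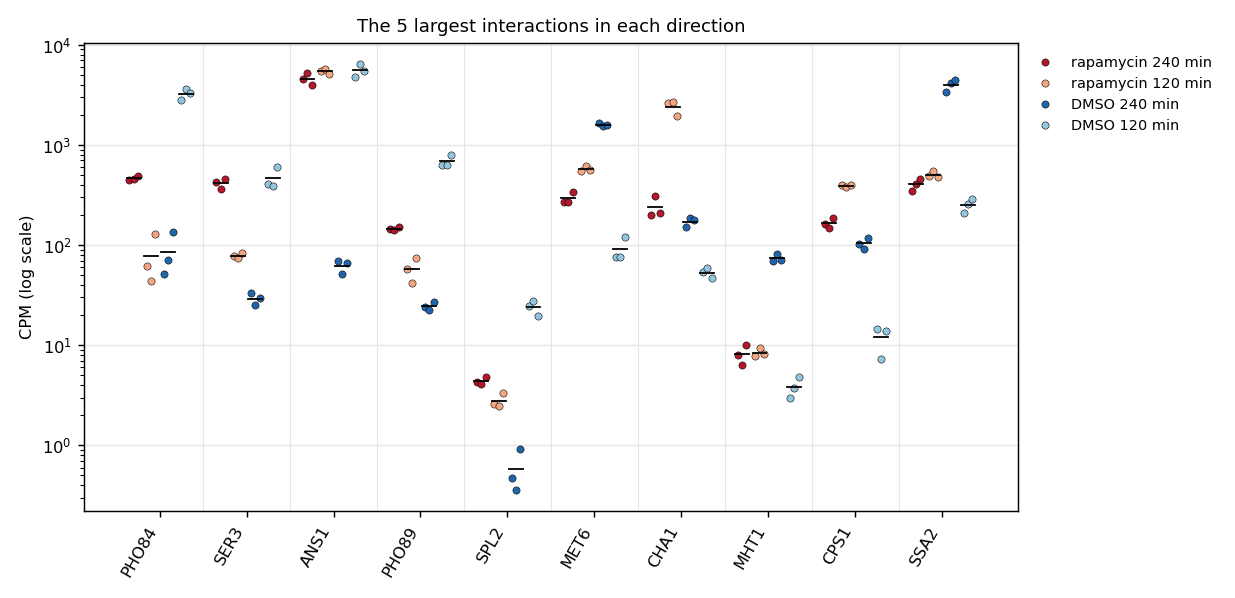
CPM (log axis) of the 5 genes with the largest interaction in each direction, in libraries A, B and C of rapamycin 240 min, rapamycin 120 min, DMSO 240 min and DMSO 120 min; bars are means. PHO84, SER3, PHO89 and SPL2 are higher at 240 than at 120 min in rapamycin and lower in DMSO, whereas MET6, CHA1, CPS1 and SSA2 show the reverse.

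The rapamycin interval was also set beside earlier intervals of the DMSO cultures, which share no library with it. From 60 to 120 min in DMSO 363 genes rose and 668 fell of 5641 tested (6.44% and 11.8%; 18.3% in either direction), and from 30 to 60 min 509 rose and 821 fell of 5778 (8.81% and 14.2%; 23%). With library sizes alone the splits were 249 higher and 871 lower from 60 to 120 min, and 222 higher and 1527 lower from 30 to 60 min. Of the 326 genes that rose in rapamycin, 316 were tested from 60 to 120 min in DMSO, where 154 rose (48.7%) and 1 fell. From 120 to 240 min in DMSO 58 of 322 rose (18%) and 16 fell, and from 30 to 60 min 147 of 317 rose (46.4%) and 34 fell.

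Of the 248 genes that fell in rapamycin, 242 were tested from 60 to 120 min in DMSO, where 153 fell (63.2%) and 4 rose. From 120 to 240 min 81 of 231 fell (35.1%) and 30 rose, and from 30 to 60 min 104 of 244 fell (42.6%) and 28 rose. Across genes the log2 fold changes of the rapamycin interval had Pearson's r of 0.66 and Spearman's rho of 0.68 with DMSO from 60 to 120 min (5611 genes). These were 0.11 and 0.01 with DMSO from 120 to 240 min (5583 genes) and 0.33 and 0.40 with DMSO from 30 to 60 min (5651 genes). Genes are not independent replicates and share their strain, annotation and base composition across libraries, so no p is given. The DMSO intervals do share libraries with each other. Those of DMSO 60 and 120 min each end an interval and begin the next, so their deviations enter these values with opposite sign. Differences between these values were not tested.

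**Figure D5:**
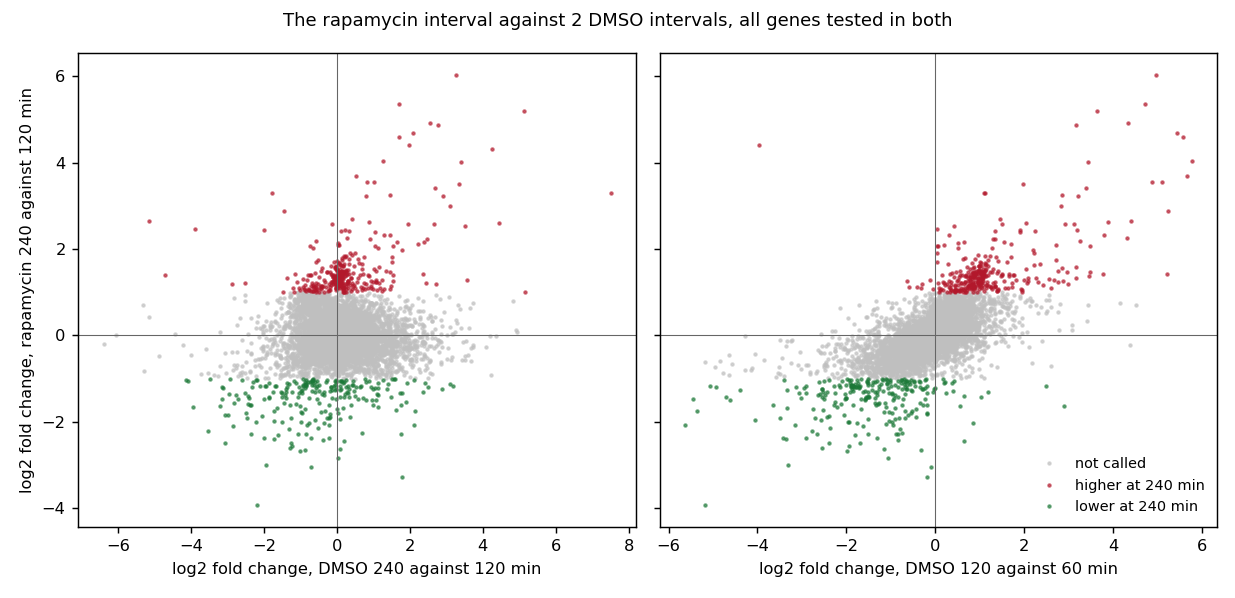
Log2 fold change in rapamycin from 120 to 240 min (vertical) against that in DMSO from 120 to 240 min (left) and from 60 to 120 min (right); each point is a gene tested in both, coloured by its call in rapamycin. The points form a rising cloud on the right (Pearson's r 0.66) and a round one on the left (0.11).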

How the data were processed

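Raw read counts per gene, as deposited, were whole numbers without normalization. To make these counts the authors used Trimmomatic 0.33 for trimming, hisat2 2.0.4 for alignment (SK1 genome) and HTSeq 0.6.1p1 for stranded counting in union mode. The gene annotation was R64-1-1.86, made for S288C, so SK1 genes that diverge from it can be undercounted. The table held 6723 genes, 139 without a read; RefSeq R64 matched 6039 identifiers, and the others held 0.189% of reads. Sequences and coordinates are from RefSeq R64.

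Groups came from the sample labels. Fits used the libraries of the groups compared (12 for the interaction) and edgeR 4.0.16 in R 4.3.3: genes over 1 CPM in at least 3 libraries, TMM scaling, glmQLFit and glmQLFTest, Benjamini-Hochberg adjustment over all genes tested, and a call at an adjusted p under 0.05 and 2-fold. SE is the log2 fold change divided by the square root of F. CPM levels use TMM over all 45 libraries, so ratios of printed levels can differ slightly from fitted changes. The procedure was tested on simulated data.

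The genes named include the 10 largest rises and falls among called, named genes without overlap and with a mean of at least 10 CPM in either group. The others are the study's own marker genes, up to 3 genes of each list and the 5 largest interactions in each direction. Exceptions are stated. The comparison, its members and all lists were chosen with earlier results of these data known. Replicate letters were taken to pair the times where every same-letter correlation of deviations was over 0.1: these were 0.25, 0.24 and 0.19 in rapamycin from 120 to 240 min. The tests, SE and calls given above did not use this pairing, which entered only as the replicate block among the alternatives. Nothing in the labels says that replicates came from separate spore preparations, so p-values measure the spread between these libraries. No 2 replicates differed by less than sampling noise. The printed SE and SD include the spread between libraries. The alternatives were DESeq2 1.42.0 (its size factors, and its Wald test), library sizes alone, other low-count filters, edgeR's exact test, no fold minimum, a replicate block, 1 fit of all 21 rapamycin libraries and leaving out each library.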

Additional observations from a re-analysis of the deposited data

Results flagged for a closer look

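The change from 120 to 240 min differed between the rapamycin and DMSO cultures for 1876 genes in the interaction test. Among the genes whose interaction is given in the report, the change was higher in rapamycin by 7.85 on the log2 scale for PHO84, 6.41 for SER3, 6.25 for ANS1, 6.16 for PHO89, 6.08 for SPL2, 5.12 for TIR1, 3.71 for AGA2, 2.94 for BAR1, 2.82 for MF(ALPHA)1, 2.78 for STE2, 2.24 for RPA43, 2.07 for RLP24 and 1.70 for RPS20. It was lower in rapamycin for MET6 (-5.08), CHA1 (-5.03), MHT1 (-4.32), CPS1 (-4.31), SSA2 (-4.31), MF(ALPHA)2 (-4.16), MET3 (-4.12), PCL1 (-4.07), DIP5 (-2.48), CIT1 (-2.32), DUR3 (-2.26), DAL5 (-2.0), CLN1 (-1.96) and SAG1 (-1.8). Groups of 3 libraries were not tested for samples far from the others.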

How the results depend on the processing

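The number of called genes stayed within 1.5 times its value in every comparison under every alternative but one. Without the 2-fold minimum 3759 genes were called in rapamycin, 4025 in DMSO from 120 to 240 min, 4101 in the interaction, 3715 in DMSO from 60 to 120 min and 4102 in DMSO from 30 to 60 min. Leaving out 1 library gave 554 to 597 called genes in rapamycin. The replicate block gave 574 called genes in rapamycin (324 higher, 250 lower), of which 572 were called without it, and 1294 and 1882 in DMSO over the same interval and in the interaction.

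With library sizes alone the medians were -0.0833 for phosphate genes, -0.17 for DNA replication, -0.0313 for mitotic regulators and -0.18 for G1 cyclins and Start, against positive medians otherwise; the last was -0.0367 to 0.047 when single libraries were left out. STE5 was -0.17 with library sizes alone and -0.0004 to 0.0504 when single libraries were left out, with the lowest value without rapamycin 120 min library A. CLN1 was -0.16 with library sizes alone and -0.15 to 0.12 when single libraries were left out, negative without library A of either time. MHT1 was 0.0042 with DESeq2 size factors, 0.0050 with DESeq2's test, 0.0114 with all 21 libraries and -0.17 to 0.12 when single libraries were left out. None of these reached 2-fold. STE12, RLP24, UTP21, DIP2 and RPA49 fell below 2-fold with library sizes alone, where 10 sulfate genes, 17 amino acid genes and 10 autophagy genes were called. MET6 (-1.12), CIT1 (-1.06) and the interaction of GAP1 (-1.07) passed the 2-fold minimum under that scaling. MET6 also passed it without rapamycin 240 min library C (-1.03).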
